A study of Mus musculus with 12 samples.

Results

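The genes of cholesterol synthesis, uptake and sterol sensing were followed in C2C12, a line of mouse skeletal muscle origin whose titles read myoblasts. They are 32 genes taken by symbol from a deposited count table of 54532 genes, and each symbol matched 1 row. Confluent dishes had received the perfluorinated surfactant PFOS (perfluorooctanesulfonate) at 0, 2 or 6 µM for 24 h, and libraries of their messenger RNA were sequenced. Each dose had 4 libraries, no other difference between the doses is named, and the vehicle of the 0 µM dishes is not given. C2C12 is a single immortal line, and no label says that the 4 libraries came from separate cultures, so p-values measure the spread between these libraries, which may be technical.

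Cells build cholesterol from acetyl-CoA through mevalonate, squalene and lanosterol. The pathway is governed by SREBP2, a transcription factor held in the endoplasmic reticulum membrane by Scap and the Insig proteins while sterols are plentiful. When sterols run low, SREBP2 is carried to the Golgi, cut free, and switches on the synthesis and uptake genes. The liver X receptors (LXR) answer the opposite state: oxysterols activate them, and they raise the efflux pumps Abca1 and Abcg1 and the ubiquitin ligase Mylip, which removes lipoprotein receptors. Muscle cells also need the mevalonate branch for prenylated proteins, dolichol and coenzyme Q.

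Library totals ran from 30206155 to 50351082 counts. All 32 genes passed the filter on low counts, though Abca1 did not in a fit of the 0 and 2 µM libraries alone. Levels are given as CPM, a gene's reads as a share of its library's TMM-scaled total. Replicate 1 of 0 µM and replicates 2 and 3 of 6 µM deviated most from their dose mean over all genes. The myoblast markers Des, at 230.2 CPM at 6 µM and 259 CPM at 0 µM, and Myod1, at 23.2 and 30.3 CPM at those doses, were present. The 7 myoblast markers summed to 3949 to 4319 CPM at 0 µM, 4080.4 to 4301 CPM at 2 µM and 4226 to 4429 CPM at 6 µM, most of it Vim. The 6 myotube markers summed to 40.3 to 56.3 CPM at 0 µM, 29.1 to 42.6 CPM at 2 µM and 25.5 to 32.9 CPM at 6 µM. Of the markers tested at 6 against 0 µM, 3 of 5 for myotubes (Myog, Myh3 and Acta1) and 3 of 6 for myoblasts (Myod1, Cdh15 and Chrna1) fell by edgeR, where 3.66% of all tested genes fell. The part of these markers in the results below was not tested. Adipocyte markers reached at most 0.221 CPM in sum, with Adipoq and Retn at 0 reads in all 12 libraries. The hepatocyte markers, with Ttr, Cyp7a1 and Serpina1a at 0 reads in all libraries, reached at most 0.208 CPM in sum, macrophage markers at most 1.58 CPM and endothelial markers at most 7.17 CPM.

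At 6 µM many synthesis genes, Insig1, Srebf2 and Stard4 were modestly higher than without PFOS, while none of the LXR receptors, efflux genes or Mylip passed by edgeR. Abca1 passed by DESeq2 and limma-voom. Of the 32 genes, 13 rose at 6 against 0 µM by edgeR's quasi-likelihood test at an adjusted p under 0.05, among 16038 genes of which 4.58% rose. None fell (0 by edgeR, DESeq2 and limma-voom, 1 at an unadjusted p under 0.05 by each), where 3.66% of all tested genes fell. Shares over all tested genes are at the adjusted p, and counts at an unadjusted p, here and below, have none beside them. The 4.58% and 3.66% also belong beside the counts by pathway step at 6 against 0 µM below. With upper-quartile scaling the all-gene calls were 598 higher and 662 lower, in place of 735 and 587, and the members' count stayed at 13. The 13 are Acat2, Hmgcs1, Idi1, Fdft1, Sqle, Lss, Tm7sf2, Msmo1, Nsdhl, Hsd17b7, Insig1, Srebf2 and Stard4, with increases from 1.12-fold for Fdft1 to 1.25-fold for Sqle. The median log2 fold change over the 32 genes was 0.16, beside -0.02 over all tested genes. In 15 genes every library at 6 µM lay above every library at 0 µM, and in 1 gene, Ggps1, every library lay below. Over all tested genes the shares were 6.39% and 6.15%.

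**Figure D1:**
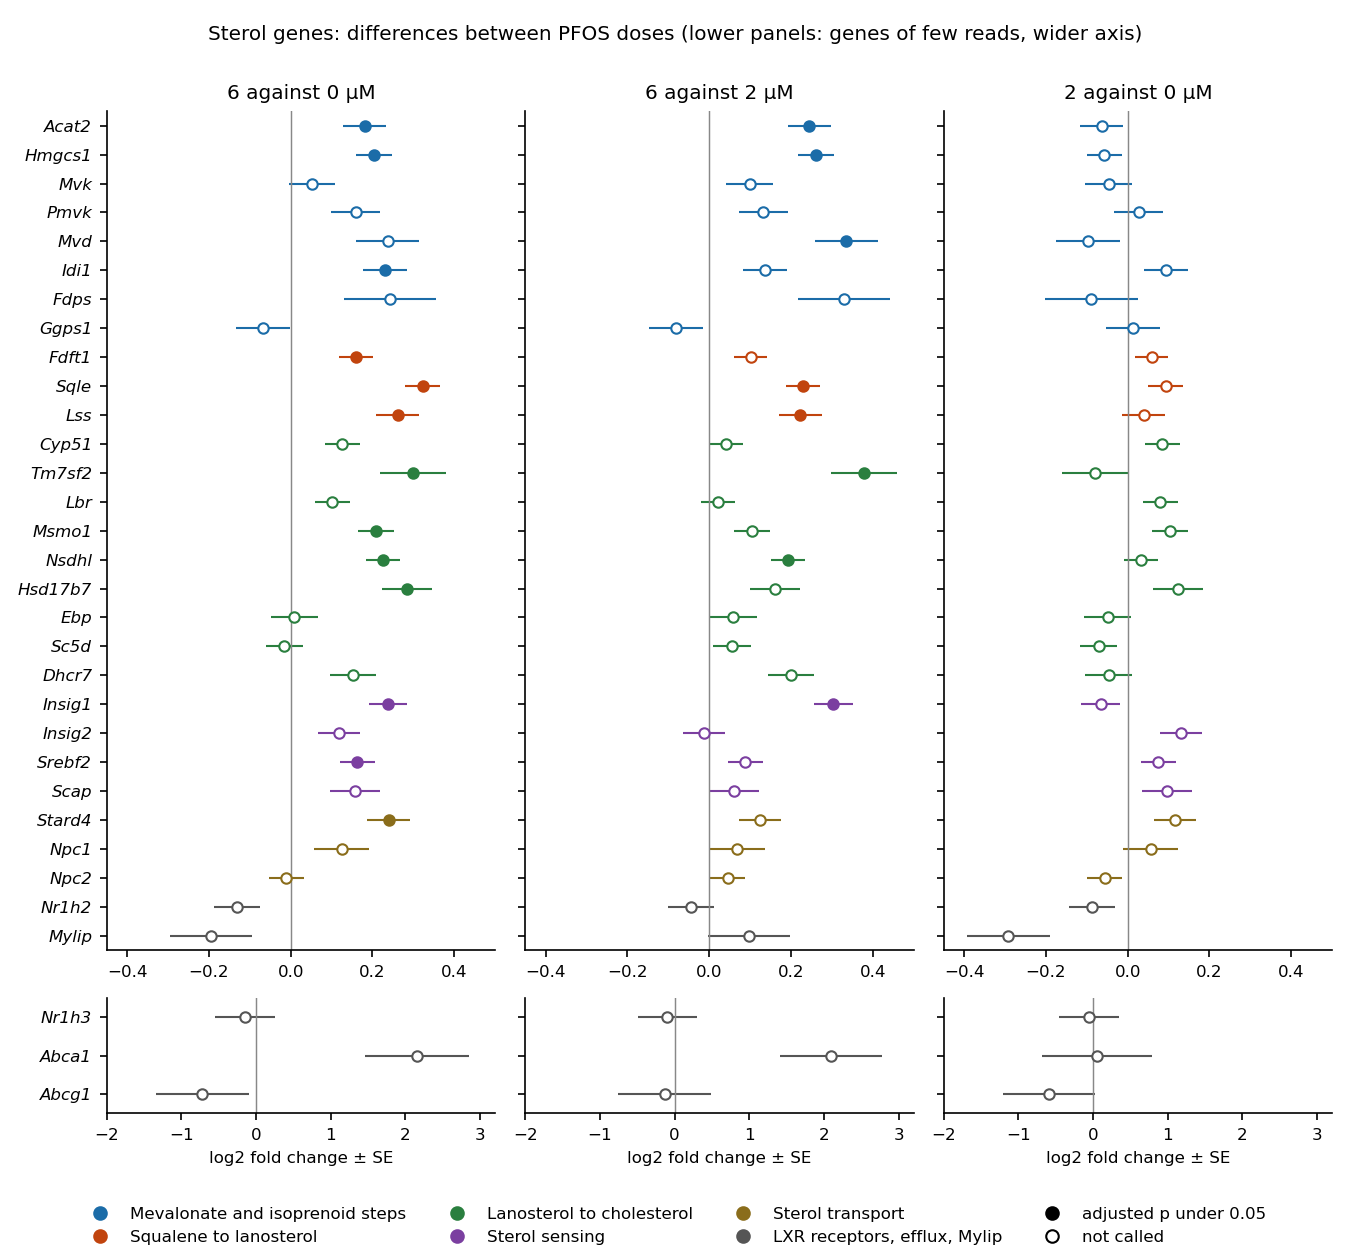
Log2 fold change ± SE (horizontal axes) of the 32 genes, ordered down the page by pathway step, for 6 against 0, 6 against 2 and 2 against 0 µM PFOS from 1 edgeR fit over 12 libraries; filled points passed an adjusted p under 0.05. Filled points lie to the right of 0 in the left and middle panels (13 and 8 genes), the right panel has none, and the 3 genes of few reads have a wider axis.

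The mevalonate steps run from acetyl-CoA to farnesyl and geranylgeranyl diphosphate, and 3 of their 8 genes rose at 6 against 0 µM. Hmgcs1, which makes the HMG-CoA that feeds the pathway, had 306, 324, 313 and 321 CPM at 0 µM, 318, 307, 295 and 293 at 2 µM and 360.5, 338, 387 and 369 at 6 µM. All 4 libraries at 6 µM were above the other 8. It averaged 364 ± 20.1 CPM at 6 µM and 316 ± 8.22 CPM at 0 µM (SD, n = 4 each), with a log2 fold change of 0.20 ± 0.0432 (SE; adjusted p = 0.00411) by edgeR. The gene lies on chromosome 13 from 119690379 to 119708260 on the plus strand (GRCm38) and is protein coding. Acat2, the cytosolic thiolase that joins acetyl-CoA units, had 186, 227, 219.9 and 213 CPM at 0 µM, 212, 199.5, 202 and 196 at 2 µM and 237, 231, 237 and 254 at 6 µM. Its 6 µM libraries were again above all others, and replicate 1 of 0 µM was the lowest of the 12. The rise was 1.13-fold with an adjusted p of 0.0334 by edgeR, and the adjusted p was 0.0899 without replicate 1 of 0 µM. It was 0.0596, 0.0583 and 0.116 without replicates 1, 3 and 4 of 6 µM, and 0.0525 with replicate number as a block. Idi1, which interconverts the 5-carbon isoprene units, had 95.1, 88.0, 92.4 and 84.4 CPM at 0 µM, 96.6, 103, 94.6 and 90.0 at 2 µM and 97.5, 110.2, 108 and 106 at 6 µM. The 6 µM libraries stood above those at 0 µM but overlapped those at 2 µM. The increase was 1.17-fold (adjusted p 0.00913 by edgeR). With the 3 deviating libraries (replicate 1 of 0 µM, replicates 2 and 3 of 6 µM) left out, the values were 0.0754 for Idi1 and 0.0897 for Acat2 as adjusted p.

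Mvd, the decarboxylase that forms isopentenyl diphosphate, was called by edgeR at 6 against 2 µM and not at 6 against 0 µM. It had 43.5, 54.4, 53.1 and 55.0 CPM at 0 µM, 54.9, 47.0, 46.0 and 44.7 at 2 µM and 61.9, 54.2, 64.5 and 62.3 at 6 µM. Replicate 1 of 0 µM stood far under the other 0 µM libraries, and replicate 2 of 6 µM overlapped them. At 6 against 0 µM it had a log2 fold change of 0.24 ± 0.0776 (SE; adjusted p = 0.0621), and at 6 against 2 µM a log2 fold change of 0.34 ± 0.0774 (SE; adjusted p = 0.0339), both by edgeR. The call at 6 against 2 µM was lost in 7 of 21 alternatives, with adjusted p values of 0.0724 with replicate number as a block and 0.0997 to 0.141 without replicate 2, 3 or 4 of 2 µM or 1, 3 or 4 of 6 µM. A call at 6 against 0 µM was gained in 5 of the 21, which gave 0.0264 as an adjusted p by DESeq2, 0.00465 with no count filter, and 0.0486, 0.0450 and 0.0279 without replicate 4 of 0 µM, 1 of 2 µM and 2 of 6 µM. The kinases Mvk and Pmvk, which phosphorylate mevalonate in succession, had log2 fold changes of 0.05 and 0.16 at 6 against 0 µM (edgeR, adjusted p 0.660 and 0.108). Fdps, which makes farnesyl diphosphate, averaged 14.9 ± 2.71 CPM at 6 µM and 12.6 ± 0.783 CPM at 0 µM, with a log2 fold change of 0.24 ± 0.113 (SE; adjusted p = 0.213) by edgeR. The table lists a gene model, Gm43738, over 7512 bases of Fdps on the same strand, so the level of Fdps is uncertain if shared reads were dropped. Ggps1, which diverts farnesyl diphosphate towards protein prenylation, had 27.9, 28.0, 28.6 and 27.7 CPM at 6 µM and 31.5, 28.9, 28.7 and 28.7 CPM at 0 µM. Those groups did not overlap, yet the log2 fold change of -0.07 ± 0.0662 (SE; adjusted p = 0.609) by edgeR missed the threshold.

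All 3 genes of the steps from farnesyl diphosphate to lanosterol, the committed entry to sterols, rose at 6 against 0 µM. Sqle, the squalene epoxidase and a rate-limiting enzyme of this branch, had 290.0, 316, 316 and 326 CPM at 0 µM, 339, 341, 329 and 323 at 2 µM and 392, 367, 397 and 406 at 6 µM. No library at 6 µM overlapped either other dose. The mean was 390.5 ± 16.8 CPM at 6 µM and 312 ± 15.5 CPM at 0 µM (SD, n = 4 each), with a log2 fold change of 0.32 ± 0.0427 (SE; adjusted p = 3.31e-05) by edgeR, the smallest adjusted p of the 32 genes. The gene lies on chromosome 15 from 59315077 to 59331192 on the plus strand (GRCm38). Lss, which folds the epoxide into lanosterol, had 187, 202, 194 and 219 CPM at 0 µM, 213, 207, 208 and 197 at 2 µM and 242, 219, 241 and 259.6 at 6 µM. Replicate 2 of 6 µM, the lowest of its dose, was only just above the highest 0 µM library. The gene rose 1.20-fold, a log2 fold change of 0.26 ± 0.0526 (SE; adjusted p = 0.00262) by edgeR. Fdft1, the squalene synthase at the branch point, had 202, 197, 219 and 203 CPM at 0 µM, 212, 213, 208 and 222 at 2 µM and 231, 224, 232 and 229 at 6 µM. The groups at 6 and 0 µM did not overlap, and Fdft1 rose 1.12-fold (adjusted p 0.0172 by edgeR), with an adjusted p of 0.0535 without replicate 2 of 0 µM and 0.0994 without the 3 most deviating libraries. Fdft1 overlaps the gene of cathepsin B, Ctsb, by 774 bases on the opposite strand, and Ctsb holds more reads. No strand setting for the counting is given in the sources used here.

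**Figure D2:**
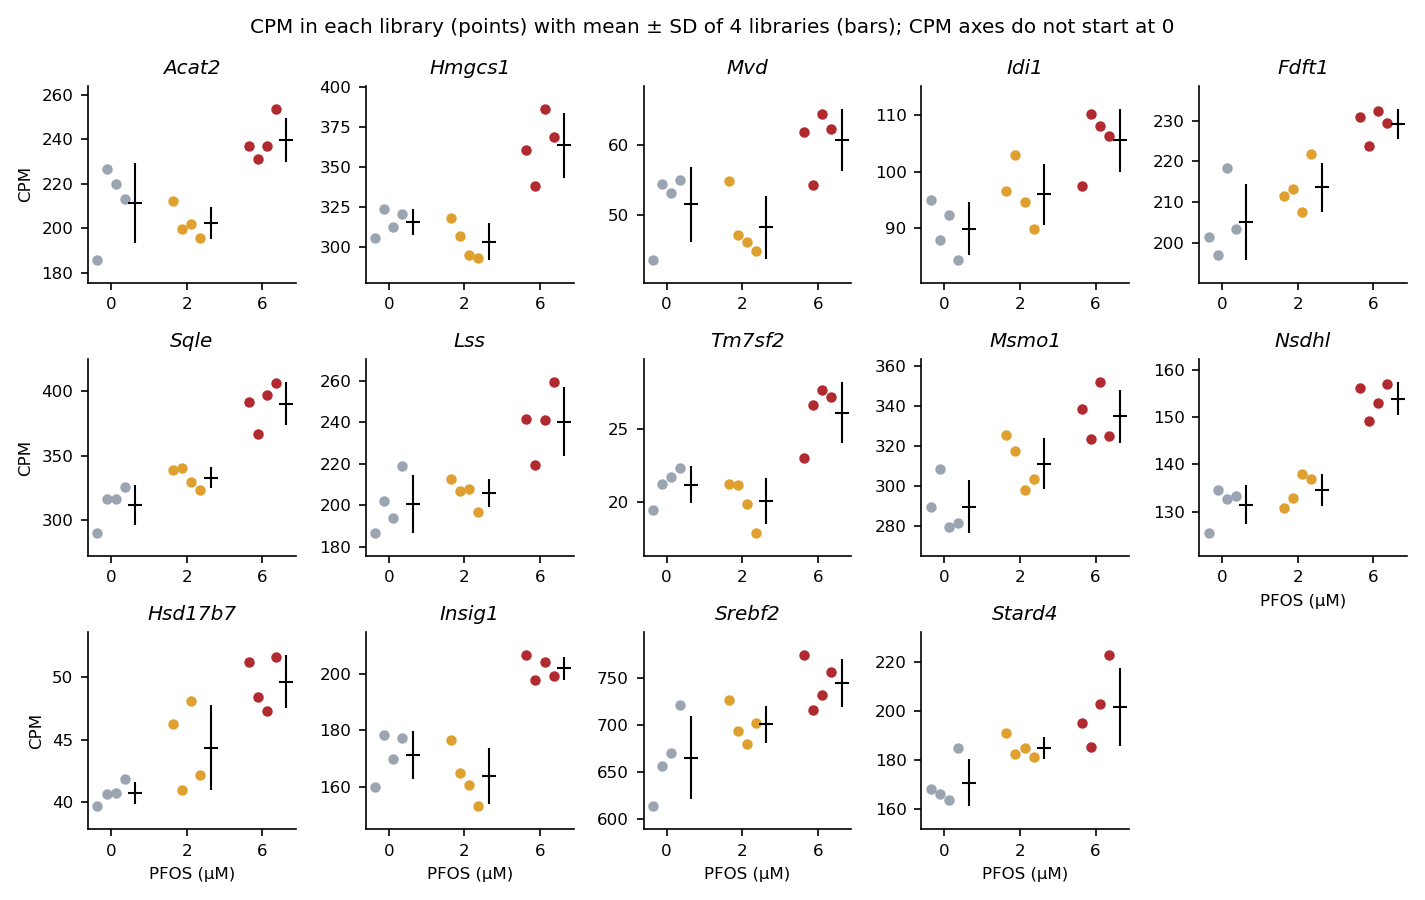
CPM (vertical axes, not starting at 0) in each library for the 14 genes called at 6 against 0 or 6 against 2 µM, by PFOS dose; points are libraries and bars are the mean ± SD of 4. Sqle, Nsdhl, Hmgcs1 and Insig1 at 6 µM lie above all libraries of both other doses, whereas Msmo1, Srebf2 and Stard4 at 6 µM overlap the libraries at 2 µM.

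From lanosterol to cholesterol, 4 of 9 genes rose, all of them acting before Ebp in the textbook order. Msmo1, the methyl oxidase that removes the methyl groups at carbon 4, had 289, 308, 279 and 281 CPM at 0 µM, 326, 317, 298 and 304 at 2 µM and 338, 324, 352 and 325 at 6 µM. Its libraries at 6 µM were above those at 0 µM, with replicate 1 of 2 µM reaching into them. It rose 1.16-fold with an adjusted p of 0.00359 by edgeR. Nsdhl, the dehydrogenase acting after Msmo1, had 125, 135, 133 and 133 CPM at 0 µM, 131, 133, 138 and 137 at 2 µM and 156, 149, 153 and 157 at 6 µM. All libraries at 6 µM were above the other 8, and the log2 fold change of 0.23 ± 0.0414 (SE; adjusted p = 0.00117) by edgeR was next after Sqle in order of p. Hsd17b7, the ketoreductase that completes the removal, had 39.7, 40.7, 40.7 and 41.8 CPM at 0 µM, 46.3, 41.0, 48.1 and 42.1 at 2 µM and 51.2, 48.4, 47.3 and 51.6 at 6 µM. The 0 µM libraries were close together and all under those at 6 µM, and the rise was 1.22-fold (adjusted p 0.00455 by edgeR).

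Mammals have a pair of reductases that act right after Cyp51, encoded by Tm7sf2 and Lbr. Tm7sf2 had 19.5, 21.3, 21.7 and 22.3 CPM at 0 µM, 21.2, 21.2, 19.9 and 17.9 at 2 µM and 23.0, 26.6, 27.6 and 27.1 at 6 µM. The 6 µM libraries exceeded all others, by 1.23-fold over 0 µM (adjusted p 0.0230 by edgeR), and the adjusted p was 0.0505 to 0.0715 without replicate 1 or 2 of 0 µM or replicate 2, 3 or 4 of 6 µM. Without the 3 most deviating libraries it was 0.291. It shares 9356 bases with Vps51 on the same strand, which makes its level uncertain. Lbr, which is also a lamin B receptor of the nuclear envelope, averaged 143 ± 2.90 CPM at 6 µM and 134 ± 6.40 CPM at 0 µM, with a log2 fold change of 0.10 ± 0.0426 (SE; adjusted p = 0.158) by edgeR. Whether Tm7sf2 and Lbr differ in their response was not tested. Cyp51, the lanosterol demethylase, had 329, 329.8, 351 and 330.1 CPM at 6 µM and 309, 301, 321 and 297 CPM at 0 µM. These groups did not overlap, but the 1.09-fold difference had an adjusted p of 0.0728 by edgeR and 0.0258 by DESeq2. The last enzymes are Ebp, which shifts a ring double bond, Sc5d, a desaturase, and Dhcr7, which reduces 7-dehydrocholesterol. Their log2 fold changes at 6 against 0 µM were 0.01, -0.02 and 0.15, with SE values of 0.0582, 0.0459 and 0.0566 and adjusted p values of 0.954, 0.888 and 0.106 by edgeR.

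Of the 4 sensing genes, Insig1 and Srebf2 rose at 6 against 0 µM, and Insig2 and Scap did not pass. Insig1, the sterol-regulated retention protein and itself a SREBP target, had 159.9, 178, 169.9 and 177 CPM at 0 µM, 177, 165, 160.4 and 153 at 2 µM and 207, 198, 204 and 199 at 6 µM. The 6 µM libraries formed a narrow group above all others. Insig1 averaged 202 ± 4.17 CPM at 6 µM and 171 ± 8.52 CPM at 0 µM (SD, n = 4 each), with a log2 fold change of 0.24 ± 0.0475 (SE; adjusted p = 0.00250) by edgeR. It lies on chromosome 5 from 28071363 to 28078662 on the plus strand (GRCm38). Srebf2, which encodes SREBP2 and activates its own gene, had 613, 656, 670.1 and 722 CPM at 0 µM, 727, 694, 679.6 and 703 at 2 µM and 775, 716, 732 and 757 at 6 µM. Replicate 4 of 0 µM lay inside the 6 µM range, so the groups overlapped. Its rise was 1.12-fold (adjusted p 0.0205 by edgeR), and the adjusted p was 0.0567, 0.0757 and 0.0572 without replicate 1 of 0 µM and replicates 1 and 4 of 6 µM in turn. Insig2, the isoform that is less tied to SREBP, had 107, 109, 104 and 105 CPM at 0 µM, 117, 121, 114 and 113 at 2 µM and 113, 105, 128 and 115 at 6 µM. Its 2 µM libraries were all above those at 0 µM, while the 6 µM libraries were spread across both. Its log2 fold change was 0.12 at 6 against 0 µM (adjusted p 0.172 by edgeR) and 0.13 at 2 against 0 µM (adjusted p 0.220). Scap, the escort of SREBP, averaged 51.0 ± 1.48 CPM at 6 µM and 45.7 ± 3.64 CPM at 0 µM with an adjusted p of 0.129 by edgeR.

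Among the transport genes, Stard4, a soluble carrier that moves cholesterol between membranes, had 168, 166, 163 and 185 CPM at 0 µM, 191, 182, 185 and 181 at 2 µM and 195, 185, 203 and 223 at 6 µM. Its lowest 6 µM library was just above the highest 0 µM library. Stard4 rose 1.18-fold, a log2 fold change of 0.24 ± 0.0523 (SE; adjusted p = 0.00514) by edgeR. Npc1 and Npc2, which release lipoprotein cholesterol from lysosomes, had log2 fold changes of 0.12 and -0.01 and adjusted p values of 0.295 and 0.915 by edgeR. Their libraries at 6 and 0 µM overlapped.

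The promoters below are shown because SREBP acts through sterol regulatory elements near the start site, usually beside CCAAT boxes bound by NF-Y. RefSeq promoters (GRCm38.p6) were at hand for 26 of the 32 genes, 33 promoters in all. A gene was counted if any of its promoters matched, while shares of all promoters count each promoter, so the 2 differ in unit. The 250 bases before each start were searched on both strands for TCACNCCAC, a sterol element, for its shorter form TCACNCNA, which TCACNCCAC contains, and for CCAAT and GGGCGG. TCACNCCAC occurred in Hmgcs1 alone of the 26, and in 1.05% of all 32851 promoters. TCACNCNA occurred in Hmgcs1, Msmo1, Nsdhl and Srebf2, which are 4 of the 10 genes with a promoter here that rose at 6 µM, in 0 of the 16 genes with a promoter here that were not called, and in 9.10% of all promoters. CCAAT was found in 21 of the 26 genes, in 9 of the 10 with a promoter here that rose and 12 of the 16 not called, and in 33.8% of all promoters. GGGCGG was found in 22 of the 26 and in 32.7% of all promoters. These are matches of letters, and binding was not measured. The letters were chosen after the gene values were seen, so the 4 of 10 and 0 of 16 do not test a link with the rise. In the 4 sequences, given 5′ to 3′ on the gene's strand and ending at the base before the start, capitals mark TCACNCNA, its longer form in Hmgcs1, and CCAAT or its reverse complement ATTGG.
Nsdhl (chrX:72918271-72918520, plus strand): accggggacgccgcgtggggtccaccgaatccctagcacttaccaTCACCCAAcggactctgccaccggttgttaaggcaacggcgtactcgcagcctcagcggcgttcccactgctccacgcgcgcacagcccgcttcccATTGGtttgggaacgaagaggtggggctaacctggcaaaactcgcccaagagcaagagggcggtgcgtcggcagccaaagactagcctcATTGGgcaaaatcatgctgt
Msmo1 (chr8:64733579-64733828, minus strand): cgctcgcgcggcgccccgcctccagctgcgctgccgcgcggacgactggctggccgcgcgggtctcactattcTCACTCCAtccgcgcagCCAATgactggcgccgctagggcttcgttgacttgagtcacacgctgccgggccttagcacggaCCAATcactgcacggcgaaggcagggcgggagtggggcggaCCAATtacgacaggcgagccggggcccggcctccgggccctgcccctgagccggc
Hmgcs1 (chr13:119690101-119690350, plus strand): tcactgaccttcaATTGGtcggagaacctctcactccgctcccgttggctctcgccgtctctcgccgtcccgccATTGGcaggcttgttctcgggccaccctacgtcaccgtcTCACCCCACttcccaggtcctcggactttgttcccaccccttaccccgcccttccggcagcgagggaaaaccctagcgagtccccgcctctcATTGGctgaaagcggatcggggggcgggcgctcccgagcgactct
Srebf2 (chr15:82147019-82147268, plus strand): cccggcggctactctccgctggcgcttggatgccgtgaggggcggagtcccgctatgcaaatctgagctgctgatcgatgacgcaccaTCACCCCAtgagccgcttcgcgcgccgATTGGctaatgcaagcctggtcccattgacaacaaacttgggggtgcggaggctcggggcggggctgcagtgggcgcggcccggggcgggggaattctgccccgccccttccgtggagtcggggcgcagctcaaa
The sterol match began 205 bases before the start in Nsdhl, 177 in Msmo1, 137 in Hmgcs1 and 162 in Srebf2. Each promoter had at least 1 CCAAT box downstream of its sterol match, and Hmgcs1 had 2 more upstream of it.

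Of the 5 LXR receptor, efflux and Mylip genes, none was called by edgeR in any of the 3 comparisons, and Abca1, Abcg1 and Nr1h3 had few reads. Over all tested genes 4.58% rose and 3.66% fell at 6 against 0 µM, so 0 of 5 is near those shares. Abca1, the pump that loads cholesterol onto apolipoproteins, had 7, 2, 5 and 6 reads at 0 µM, 6, 4, 14 and 1 at 2 µM and 24, 18, 33 and 32 at 6 µM. All libraries at 6 µM were above the other 8, at a level under 1 CPM. The mean was 0.634 ± 0.189 CPM at 6 µM and 0.145 ± 0.0777 CPM at 0 µM (SD, n = 4 each), a 4.44-fold difference with a log2 fold change of 2.15 ± 0.698 (SE; adjusted p = 0.0602) by edgeR. DESeq2 and limma-voom gave Abca1 adjusted p values of 0.0222 and 0.0427, and edgeR fitted on the 0 and 6 µM libraries alone gave 0.0343. Whether Abca1 passed thus depended on the tool and on the libraries fitted. Abca1 also met the count filter through its 6 µM libraries. A fit of the 0 and 2 µM libraries alone kept 31 of the 32 genes, without Abca1. Its p-values are thus those of a gene kept through the dose at which it was high. Abca1 lies on chromosome 4 from 53030787 to 53159895 on the minus strand (GRCm38). Its promoter is shown because LXR is known to bind a direct repeat near the start of this gene. A search on both strands for GGTNA, any 5 bases and GGTCA matched in Abca1 alone of the 26 genes, 67 to 53 bases before the start, and in 0.177% of all promoters. The letters were chosen after the gene values were seen and with this repeat already known, so the match is not a test. Capitals mark the match, which is on the opposite strand.
Abca1 (chr4:53159896-53160145, minus strand): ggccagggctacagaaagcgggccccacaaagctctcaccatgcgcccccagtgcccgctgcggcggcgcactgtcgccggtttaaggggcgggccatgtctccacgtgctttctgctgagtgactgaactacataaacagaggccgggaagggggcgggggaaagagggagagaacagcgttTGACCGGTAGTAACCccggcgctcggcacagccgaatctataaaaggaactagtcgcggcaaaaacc

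Abcg1, the pump that passes cholesterol to high-density lipoprotein, had 21, 30, 44 and 16 reads at 0 µM, 17, 9, 30 and 28 at 2 µM and 11, 36, 2 and 26 at 6 µM. Replicates 1 and 3 of 6 µM were under all 0 µM libraries in CPM and the other two were among them, with a log2 fold change of -0.72 ± 0.618 (SE; adjusted p = 0.553) by edgeR. A change in Abcg1 of the size measured in the synthesis genes was not detectable at this depth. Mylip had 15.4, 14.5, 12.3 and 16.3 CPM at 0 µM, 12.2, 11.2, 13.3 and 11.1 at 2 µM and 13.4, 11.9, 13.2 and 12.6 at 6 µM. Replicate 3 of 0 µM was inside the range of the treated libraries, and the log2 fold changes were -0.19 at 6 against 0 µM and -0.29 at 2 against 0 µM, neither of which passed (edgeR, adjusted p 0.273 and 0.153). Of the receptors, Nr1h2 (LXR beta) averaged 68.8 ± 3.49 CPM at 6 µM and 75.4 ± 4.63 CPM at 0 µM with an adjusted p of 0.168 by edgeR. Nr1h3 (LXR alpha) averaged 0.887 ± 0.397 CPM at 6 µM and 0.987 ± 0.352 CPM at 0 µM, with a log2 fold change of -0.15 ± 0.400 (SE; adjusted p = 0.875) by edgeR.

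**Figure D3:**
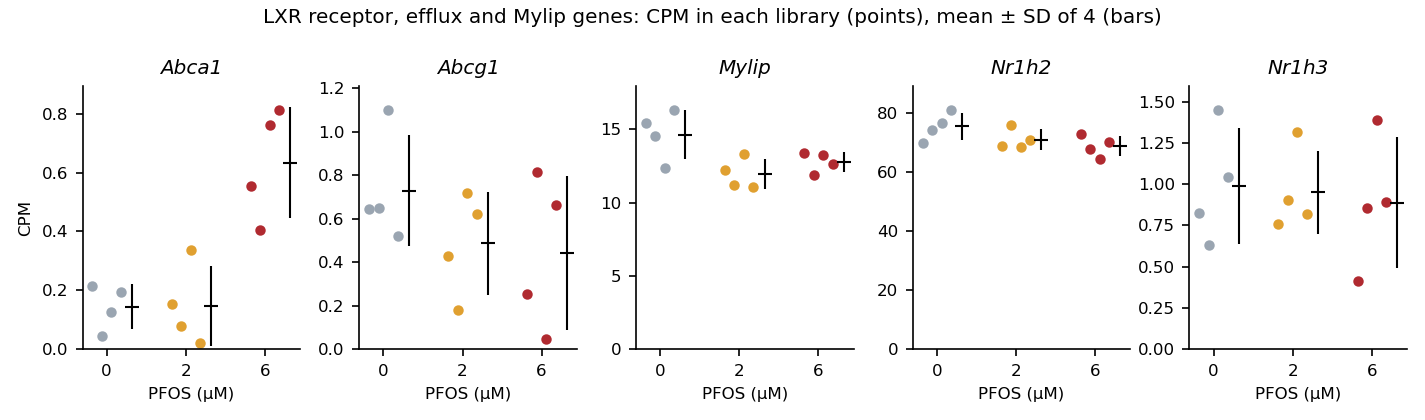
CPM (vertical axes, from 0) of Abca1, Abcg1, Mylip, Nr1h2 and Nr1h3 in each library by PFOS dose; points are libraries and bars the mean ± SD of 4. Abca1 at 6 µM lies above both other doses but under 1 CPM, and the other 4 genes overlap between the doses.

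Set side by side, 13 of 25 SREBP2-type genes (the 20 enzymes with Stard4, Insig1, Srebf2, Npc1 and Npc2) and 0 of 3 LXR-type targets (Abca1, Abcg1 and Mylip) rose at 6 against 0 µM by edgeR. Over all tested genes 4.58% rose. For 3 genes, 0 calls is near that share, so the 0 of 3 is not a result about LXR targets. At an unadjusted p under 0.05 by edgeR, 1 of the LXR group of 5 was higher and 1 lower. The lower 1 was the receptor Nr1h2, and 0 of the 3 targets were lower. DESeq2 and limma-voom each called 1 of the 5 higher, which was Abca1. The median log2 fold change was 0.18 over the SREBP2-type genes, where 22 of 25 were above 0. Over the LXR-type targets, where 1 of 3 was above 0, it was -0.19. That median is the value of Mylip alone, which was not called, with Abcg1 at -0.72 and Abca1 at 2.15. In single libraries, the median over the 25 genes, on the log2 scale against the 0 µM mean of each gene, was -0.06 to 0.02 at 0 µM, 0.0014 to 0.04 at 2 µM and 0.10 to 0.21 at 6 µM. The 6 µM libraries were all above the rest, with replicate 2 the lowest of them. Replicate 2 held the lowest 6 µM value in 16 of the 25 genes, replicate 4 the lowest 2 µM value in 14, and replicate 1 the lowest 0 µM value in 14. For the 3 LXR-type genes the library medians were -0.10 to 0.16, -0.48 to 0.03 and -0.14 to 0.20 at 0, 2 and 6 µM and overlapped. The 2 groups differ in size and in depth, and the difference between them was not tested.

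**Figure D4:**
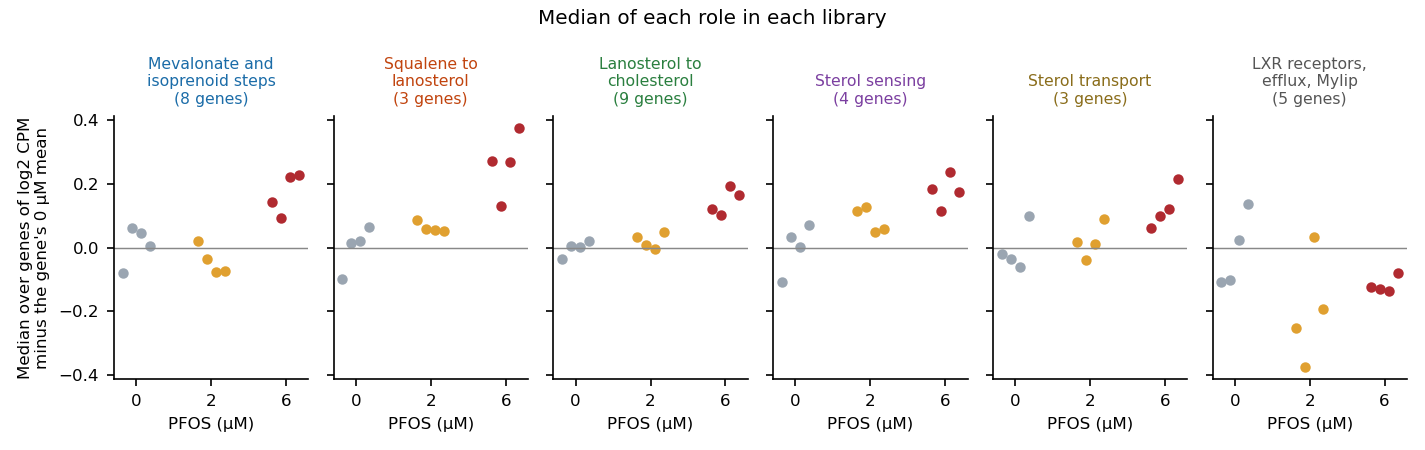
Median over the genes of each role of log2 CPM minus the gene's 0 µM mean (vertical axis), 1 point per library, by PFOS dose. The squalene to lanosterol genes reach 0.13 to 0.37 at 6 µM against -0.10 to 0.06 at 0 µM, and the LXR receptor, efflux and Mylip genes at 6 µM lie at -0.14 to -0.08, inside the range at 2 µM.

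The calls came from the comparisons with 6 µM. At 2 against 0 µM none of the 32 genes passed in either direction, by edgeR, DESeq2 or limma-voom, while 1.61% of all tested genes rose and 0.742% fell. With upper-quartile scaling those all-gene calls were 184 higher and 134 lower, in place of 258 and 119. At an unadjusted p under 0.05, 4 of the 32 were higher (Msmo1, Insig2, Sqle and Stard4) and 1 lower (Mylip) by edgeR. No share over all genes is given at that threshold, so these 4 and 1 cannot be set against a background. The median over the 32 genes was 0.02, beside -0.01 over all genes. Among the 13 genes called at 6 µM, 9 had a 2 µM estimate between 0 and 6 µM. For Msmo1 it was 0.10 with an SE of 0.0435, for Stard4 0.12 with 0.0523, and for Hsd17b7 0.12 with 0.0612. The other 4, Acat2, Hmgcs1, Tm7sf2 and Insig1, had log2 estimates below 0 at 2 against 0 µM, from -0.08 to -0.06, and none of these passed. The 13 were picked by their difference between 6 and 0 µM, which by itself favours a 2 µM estimate in between. The 9 of 13 thus do not test a graded response. Of the 19 genes not called, 6 had estimates rising from 0 through 2 to 6 µM, and 3 had falling ones.

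The direct comparison of 6 with 2 µM called 8 of the 32 genes higher and none lower by edgeR, against 0.561% and 0.549% of all tested genes. At an unadjusted p under 0.05, 17 were higher and 0 lower, and DESeq2 and limma-voom called 9 and 8 higher and 0 lower. The shares over all genes are for the adjusted p by edgeR, and none is given for the unadjusted p. Insig1 led with 202 ± 4.17 CPM at 6 µM and 164 ± 9.96 CPM at 2 µM (SD, n = 4 each) and a log2 fold change of 0.30 ± 0.0475 (SE; adjusted p = 0.00111) by edgeR. Hmgcs1 averaged 364 ± 20.1 CPM at 6 µM and 303 ± 11.5 CPM at 2 µM, and had an adjusted p of 0.00203 by edgeR. Sqle followed at 1.17-fold (adjusted p 0.00625 by edgeR). The other 5 were Tm7sf2 at 1.30-fold, Mvd at 1.26-fold, Acat2 at 1.18-fold, Lss at 1.17-fold and Nsdhl at 1.14-fold, with adjusted p values from 0.0194 for Tm7sf2 to 0.0391 for Lss. Insig1, Hmgcs1 and Sqle were called in all 21 alternatives, while the count of 8 depended on single libraries. It was 4, 4 and 3 without replicates 2, 3 and 4 of 2 µM, and 4, 3 and 3 without replicates 1, 3 and 4 of 6 µM. The 3 comparisons share libraries, so their values are not independent.

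Without PFOS the transcripts of the pathway already covered a wide range of levels per length. In CPM per kilobase of the gene length in the table, Srebf2 had 92.6 ± 6.22 (SD, n = 4), Acat2 83.1 ± 7.05, Cyp51 69.5 ± 2.39 and Hmgcs1 68.7 ± 1.79. The levels of Cyp51 and Hmgcs1 differed by less than their SD, and Sqle and Insig1 came next at 56.3 and 55.4 CPM per kilobase. Insig1 was above Insig2, which had 30.6. The lowest were Nr1h3 at 0.392, Abcg1 at 0.179 and Abca1 at 0.0139 CPM per kilobase. Nr1h2 had 22.5, far above the other LXR receptor.

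Further lists, chosen with earlier results of these data known, cover the genes around the pathway. Over all tested genes 4.58% rose and 3.66% fell at 6 against 0 µM by edgeR. Of 15 genes that process SREBP or degrade sterol-regulated proteins, 2 rose at 6 against 0 µM and 0 fell by edgeR, with 2 lower at an unadjusted p under 0.05. Limma-voom called 0 lower and DESeq2 called 1 lower. Erlin1, an endoplasmic reticulum scaffold in sterol-dependent degradation, averaged 91.4 ± 3.74 CPM at 6 µM and 76.0 ± 4.35 CPM at 0 µM (adjusted p 0.00286 by edgeR). Rnf145, a sterol-responsive ubiquitin ligase, averaged 157 ± 8.55 CPM at 6 µM and 135 ± 6.36 CPM at 0 µM (adjusted p 0.00387 by edgeR). The site proteases of SREBP, Mbtps1 and Mbtps2, had log2 fold changes of 0.05 and 0.15 and did not pass. Of 14 genes that use isoprenoids for prenylation, dolichol or coenzyme Q, 0 were called in either direction by edgeR, DESeq2 or limma-voom, with 0 at an unadjusted p under 0.05 by edgeR, and the median was 0.01. For 14 genes, 0 calls is near the shares over all tested genes.

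Of 23 genes of sterol handling, 22 were tested, 5 rose and 1 fell at 6 against 0 µM. Soat1, which esterifies cholesterol for storage, averaged 82.6 ± 1.25 CPM at 6 µM and 70.7 ± 3.16 CPM at 0 µM, and Scarb2, a lysosomal membrane protein, averaged 136 ± 2.57 CPM at 6 µM and 117 ± 5.32 CPM at 0 µM, and both passed (edgeR, adjusted p 0.00465 and 0.00240). Cav1, the caveolar scaffold, averaged 559.7 ± 12.7 CPM at 6 µM and 626 ± 28.1 CPM at 0 µM and was the gene that fell (adjusted p 0.00905 by edgeR). Of 10 other LXR-related genes 6 were tested and 1 rose, Lpcat3, a phospholipid acyltransferase that also answers to PPARs, at 108 ± 3.92 CPM at 6 µM and 77.9 ± 3.24 CPM at 0 µM (adjusted p 2.05e-06 by edgeR). Of 15 genes of fatty acid synthesis that SREBP1 is known to drive, 14 were tested and 11 rose, with a median log2 fold change of 0.21. Acss2, which makes acetyl-CoA from acetate, averaged 131 ± 7.77 CPM at 6 µM and 103 ± 5.80 CPM at 0 µM (adjusted p 0.000117 by edgeR). Acaca, which makes malonyl-CoA, rose 1.32-fold, and Scd1, a desaturase, rose 1.27-fold.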

How the data were processed

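Messenger RNA of 12 C2C12 libraries was given as 1 table of raw read counts per gene, which the authors deposited without normalization. Per the submitters' processing notes, the aligner was HISAT2 on GRCm39. Its version, the counting program, the strand setting and the annotation release are not given. Coordinates of 29 of the 32 genes equal those of GENCODE M21, so they are named as GRCm38.

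The deposited counts were tested with edgeR 4.0.16 (R 4.3.3): TMM scaling, filterByExpr by dose (16038 of 54532 genes kept), 1 quasi-likelihood fit of 12 libraries with dose means, and Benjamini-Hochberg adjustment over all tested genes, called under 0.05. Each SE comes from the fold change and its F statistic. Library medians use log2 CPM with a prior count of 2. The steps were tested on simulated counts with known changes. How often changes as small as those of the members were recovered is not given here, so a gene not called may still differ. DESeq2 1.42.0, limma-voom (limma 3.58.1), other scalings and filters, a replicate block and left-out libraries were alternatives.

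Members and lists were chosen with earlier results of these data known. All 32 genes are accounted for. Values by library are given for genes called at 6 against 0 µM (up to 14), for those called in another comparison, and for Insig1, Srebf2, Abca1, Abcg1 and Mylip. Up to 3 called genes of each other list are named by adjusted p. Mbtps1, Mbtps2, and the library values of Insig2, Cyp51 and Ggps1 were added after their values were seen, as were the motif letters.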

Additional observations from a re-analysis of the deposited data

Results flagged for a closer look

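Of 96 groups of 4 libraries (32 genes at 3 doses), 5 had 1 library far from the other 3 by Dixon's 95% criterion, and chance alone gives about 1 in 20. Mvd had 43.5 CPM in replicate 1 of 0 µM, which lay under the other 3 libraries of that dose at 53.1 to 55.0 CPM. Fdps had 18.9 CPM in replicate 3 of 6 µM, which lay above the other 3 libraries of that dose at 13.3 to 13.8 CPM. Ggps1 had 31.5 CPM in replicate 1 of 0 µM, which lay above the other 3 libraries of that dose at 28.7 to 28.9 CPM. Cyp51 had 351 CPM in replicate 3 of 6 µM, which lay above the other 3 libraries of that dose at 329 to 330.1 CPM. Npc1 had 65.2 CPM in replicate 4 of 2 µM, which lay above the other 3 libraries of that dose at 52.8 to 54.7 CPM. Replicate 3 of 6 µM and replicate 1 of 0 µM, which appear more than once here, are also among the 3 libraries that deviate most from their dose mean over all genes.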

How the results depend on the processing

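The 13 genes called higher at 6 against 0 µM were 12 with the replicate block, 9 without the 3 most deviating libraries and 10 to 14 when single libraries were left out. The other settings gave 13 to 16. All 13 kept their direction in all 21 alternatives, and 8 stayed called in each (Hmgcs1, Sqle, Lss, Msmo1, Nsdhl, Hsd17b7, Insig1 and Stard4). The 8 genes called at 6 against 2 µM were 6 with the replicate block, 7 without the 3 libraries and 3 to 8 when single libraries were left out. Over all genes, 6 against 0 µM gave 1322 calls, 710 without the 3 libraries and 918 to 1343 with single libraries left out. At 2 against 0 µM 377 calls became 751 with DESeq2, 631 with no count filter and 106 to 490 with single libraries left out. At 6 against 2 µM 178 calls became 445, 401, 307 in a fit of only the doses compared, and 82 to 259. The cause was not tested. Signs turned only in genes that were not called. At 2 against 0 µM these were Abca1 (-0.221 with limma-voom, -0.0264 with the block, -0.733 to 0.408 without single libraries), Ggps1 (-0.00239 with upper-quartile scaling, -0.0181 to 0.0472 without single libraries), Npc1 (-0.0197 to 0.0905), Nr1h3 (-0.249 to 0.198) and Pmvk (-0.0420 to 0.0717, and -0.0405 without the 3 libraries). At 6 against 0 µM these were Ebp (-0.00464 with upper-quartile scaling, -0.0644 without the 3 libraries, -0.0219 to 0.0362 without single ones), Npc2 (-0.0338 to 0.0169), Nr1h3 (-0.449 to 0.101) and Sc5d (-0.0354 to 0.00774, and 0.0388 without the 3 libraries). At 6 against 2 µM these were Abcg1 (-0.608 to 0.245), Insig2 (-0.0621 to 0.0284), Nr1h3 (-0.396 to 0.140) and Nr1h2 (0.0132 without the 3 libraries). Deviations of same-numbered libraries from their dose means correlated at -0.0280 to 0.0375, and 5 of 12 libraries correlated best with their own number. The number to be had by chance was not worked out, and whether replicate numbers pair the libraries was not tested.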
